A study of Mus musculus with 7 samples.

Results

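The MHC class II presentation genes described here are H2-Aa, H2-Ab1, H2-Eb1, H2-DMa, H2-DMb1, H2-Oa, H2-Ob, Cd74 and Ciita. They were chosen by gene symbol as 9 of the 56422 symbols in the expression table, and all 9 were found and passed the expression filter that left 14967 genes for testing. Bulk messenger RNA had been sequenced from mouse samples labelled as CD8+ T cells, taken from ascites, the fluid that gathers in the abdomen, in models of cancer spread to the peritoneum. The control group (4 libraries) has no treatment in its labels, and the treated group (3 libraries) received propionate together with butyrate, both short-chain fatty acids that gut bacteria make. The sources used here do not give strain, age, tumour line or how the cells were purified, and the extraction protocol speaks of RNA from tissue. No label says that libraries came from separate animals, so the p-values describe sample-to-sample spread that may be technical. One treated column carries a number that no treated sample has, and it is called the unnumbered treated library.

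MHC class II molecules present peptides from endosomes to CD4+ T cells. H2-Aa and H2-Ab1 encode the alpha and beta chains of I-A, and H2-Eb1 encodes the beta chain of I-E. Cd74, the invariant chain, fills the peptide groove until endosomal proteases cut it. H2-DMa and H2-DMb1 encode H2-DM, which exchanges its last fragment for antigenic peptide, and H2-Oa and H2-Ob encode H2-O, an inhibitor of H2-DM found mainly in B cells and some dendritic cells. Ciita is the master transactivator of the classical class II chains and Cd74. It binds no DNA itself but docks on the RFX, CREB and NF-Y factors that sit on the X and Y boxes of class II promoters. B cells, dendritic cells and many macrophages express these genes, interferon gamma can induce them in other cell types, and mouse T cells are not known as a source of them.

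The shared promoter architecture is shown here because class II promoters are known to share it. Promoter windows of 250 bases before to 50 after the annotated start were matched by symbol in RefSeq on GRCm38.p6 for 6 of the 9 members. H2-Ab1, Cd74 and Ciita had no entry. The build is that of the sequence table and not that of the expression table. Each stretch below is 60 bases, 5′ to 3′ on the strand of the gene, aligned on the Y box core, with capitals for the Y core ATTGG and for the X core AGNAAC where it lies 20 to 50 bases ahead of it.
H2-Eb1: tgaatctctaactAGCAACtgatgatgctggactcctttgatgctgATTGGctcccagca
H2-DMb1: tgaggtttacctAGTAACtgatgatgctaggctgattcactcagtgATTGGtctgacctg
H2-Oa: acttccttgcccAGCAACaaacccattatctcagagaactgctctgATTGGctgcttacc
H2-Ob: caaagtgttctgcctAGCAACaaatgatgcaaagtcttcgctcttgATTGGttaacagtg
H2-Aa: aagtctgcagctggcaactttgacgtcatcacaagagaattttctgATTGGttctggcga
These stretches lie at chr17:34305762-34305821 (H2-Eb1), chr17:34153084-34153143 (H2-DMb1), chr17:34092290-34092349 (H2-Oa) and chr17:34238802-34238861 (H2-Ob), all on the plus strand, and at chr17:34287858-34287917 on the minus strand (H2-Aa). The X core began 33 bases ahead of the Y core in H2-Eb1, 34 in H2-DMb1, 34 in H2-Oa and 31 in H2-Ob. The Y core of these genes began 59, 61, 43 and 57 bases before the start site. H2-Aa held the Y core 48 bases before its start without those X letters, and neither of the 2 windows of H2-DMa held the pair. With both strands searched, the ordered pair occurred in 1.67% of 32851 windows, and on the strand of the gene in 0.81%. Alone, AGNAAC occurred in 48.05% of windows and ATTGG, whose reverse complement is CCAAT, in 37.41%. A match describes letters and not a bound site.

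Class II genes were among the most abundant messages of these libraries. TPM is corrected for transcript length and adds up to one fixed sum in each library. Levels of different genes can therefore be compared, but sequencing depth is unknown. Cd74 averaged 2909 ± 494 TPM (SD, n = 4) in control libraries, rank 27 of all symbols, H2-Aa 1794 ± 300.4 (SD, n = 4), H2-Eb1 1556 ± 199 (SD, n = 4) and H2-Ab1 988 ± 184 (SD, n = 4). H2-DMb1 and H2-DMa were lower, at 137 ± 18.7 and 118 ± 15.0 TPM (SD, n = 4 each). Ciita, H2-Ob and H2-Oa were lowest, at 21.2 ± 3.82, 15.7 ± 6.66 and 6.25 ± 2.09 TPM (SD, n = 4 each). The order from Cd74 through H2-Aa, H2-Eb1 and H2-Ab1 to H2-DMb1 held in 7 of 7 libraries. H2-DMb1 exceeded H2-DMa in 5 of 7 libraries, among them 4 of 4 controls. Ciita exceeded H2-Ob in 3 of 7, all of them controls. The 9 genes together made up 0.6447% to 0.8855% of TPM in control and 0.5061% to 0.6833% in treated libraries. The CD8 alpha chain gene Cd8a, a defining marker of the labelled cell type, was present at 7.95 to 17.98 TPM in control and 54.25 to 242.23 in treated libraries. In each of the 7 libraries the class II genes summed to more TPM than 10 T cell identity genes, whose sums are given with the marker lists.

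**Figure D1:**
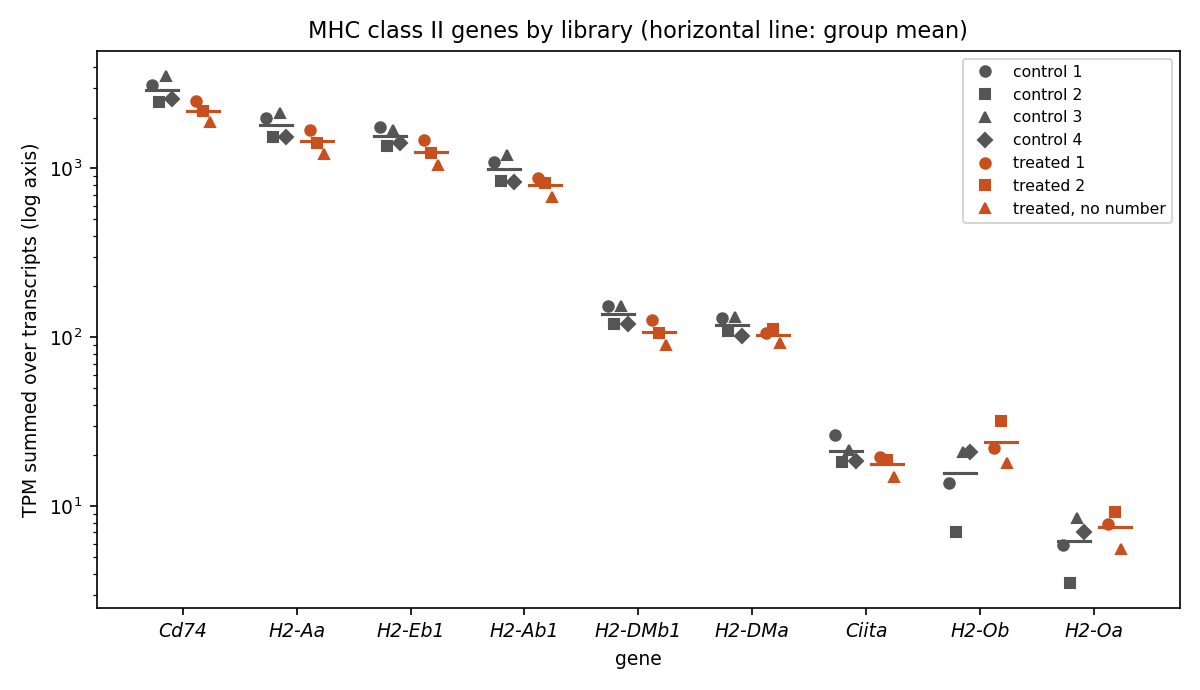
TPM of the 9 class II genes on a log axis, 1 point per library, with grey for 4 control and orange for 3 treated libraries and a line at each group mean. The groups overlap for every gene, and the unnumbered treated library is lowest for 7 of the 9.

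Between the groups, no class II gene passed the test. In limma with Benjamini-Hochberg adjustment over all 14967 tested genes, 0 of 9 members were called higher and 0 lower at an adjusted p under 0.05, and 0 of 9 had an unadjusted p under 0.05. Among all tested genes 11.9% were called, 4.3% higher and 7.59% lower. No other tool was run; with limma's array weights, which let libraries count unequally, 1 member was called higher (H2-Ob) and 1 lower (H2-DMb1), where 43.2% of all tested genes were called, 15% higher and 28.2% lower. Median-of-ratios scaling, another way to put libraries on one scale, called 0 of 9 members and 15.4% of all tested genes, 8.63% higher and 6.74% lower. Of the 9 log2 fold changes 7 were negative and 2 positive, with a median of -0.31, beside a median of -0.24 over all tested genes. Median-of-ratios scaling moved the median of all genes to -0.02 and that of the members to -0.05, and with it Ciita and H2-DMa stood at 0.01 and 0.07. The unnumbered treated library held 32.87% of its TPM in mitochondrially encoded genes, against 13.57% to 18.23% in the other 6, and without it the members' median was -0.19. The part of these values in the class II levels was not tested. The groups' TPM overlapped for all 9 members, whereas 30.5% of tested genes showed no overlap.

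H2-Aa was above H2-Ab1 in all 7 libraries, and neither chain of I-A was called. H2-Aa stood at 1985.83, 1533.07, 2115.03 and 1543.46 TPM in control 1 to 4, and at 1697.02, 1422.09 and 1211.03 TPM in treated 1, treated 2 and the unnumbered treated library. Control 3 and 1 were highest and the unnumbered library lowest, with treated 1 inside the control range. The log2 fold change, on the log2(TPM + 1) scale used throughout, was -0.31 (SE 0.24, 95% interval -0.82 to 0.20, limma Benjamini-Hochberg adjusted p = 0.382). H2-Ab1 stood at 1092.01, 839.01, 1194.32 and 826.28 TPM in the controls and at 876.13, 821.74 and 681.24 TPM in the treated libraries. Its log2 fold change was -0.31 (SE 0.22, 95% interval -0.79 to 0.17, limma adjusted p = 0.364). These intervals allow a fall of H2-Aa to 0.567-fold or a rise to 1.15-fold of control, and of H2-Ab1 to 0.580-fold or 1.13-fold. In bulk samples, fewer cells of a type and less RNA per cell cannot be told apart.

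The I-E beta chain and the invariant chain showed the same library order with small exceptions. H2-Eb1 stood at 1760.34, 1356.84, 1689.67 and 1417.01 TPM in the controls and at 1473.84, 1236.64 and 1054.39 TPM in the treated libraries, for a log2 fold change of -0.31 (SE 0.23, 95% interval -0.80 to 0.17, limma adjusted p = 0.358). Treated 2 and the unnumbered library lay below every control, and treated 1 did not. Cd74 stood at 3098.7, 2459.35, 3519.22 and 2558.66 TPM in the controls and at 2502.18, 2184.73 and 1893.06 TPM in the treated libraries. Treated 1 again lay above the lowest control, and the log2 fold change was -0.40 (SE 0.25, 95% interval -0.93 to 0.13, limma adjusted p = 0.281). H2-Ea, which encodes the I-E alpha chain and is silent in mice of the H2-b haplotype such as C57BL/6, was listed at 0 in all 7 libraries. H2-Eb1 was therefore abundant without a listed message for its partner chain.

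Neither chain of the peptide exchange factor H2-DM was called. H2-DMa stood at 130.23, 108.94, 132.12 and 102.27 TPM in the controls and at 106.81, 112.6 and 92.45 TPM in the treated libraries, for a log2 fold change of -0.18 (SE 0.19, 95% interval -0.58 to 0.22, limma adjusted p = 0.526). Both numbered treated libraries fell within the control range. H2-DMb1 stood at 152.64, 120.73, 153.25 and 120.43 TPM in the controls and at 127.28, 106.15 and 90.5 TPM in the treated libraries, with a log2 fold change of -0.34 (SE 0.20, 95% interval -0.76 to 0.08, limma adjusted p = 0.253). With array weights H2-DMb1 was called lower at -0.36 (limma adjusted p = 0.0429), where its adjusted p over all 18 alternatives ran from 0.0429 to 0.607. H2-DMb2, a close copy of H2-DMb1 that can share reads with it, stood at 15.93 to 29.88 TPM in control and 23.98 to 29.74 TPM in treated libraries.

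H2-O, the inhibitor of H2-DM, had the opposite sign. H2-Ob stood at 13.72, 7.09, 20.98 and 20.9 TPM in the controls and at 22.02, 31.89 and 18.01 TPM in the treated libraries. Treated 2 and 1 were highest and control 2 lowest, while the unnumbered treated library lay below control 3 and 4. The log2 fold change was 0.65 (SE 0.32, 95% interval -0.03 to 1.33, limma adjusted p = 0.182), and with array weights it was called higher at 0.85 (limma adjusted p = 0.0293, against 0.0293 to 0.43 over its alternatives). H2-Oa, its partner chain, stood at 5.93, 3.54, 8.51 and 7 TPM in the controls and at 7.89, 9.22 and 5.56 TPM in the treated libraries, for a log2 fold change of 0.27 (SE 0.27, 95% interval -0.31 to 0.84, limma adjusted p = 0.515). Control 2 was lowest for both chains and treated 2 highest for both. Leaving out control 2 brought H2-Oa to 0.06 and H2-Ob to 0.34, and leaving out treated 2 brought them to 0.13 and 0.44. Without the unnumbered library they stood at 0.45 and 0.83, and none of these values was called.

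Ciita, the transactivator, stood at 26.45, 18.29, 21.59 and 18.45 TPM in the controls and at 19.7, 18.92 and 15 TPM in the treated libraries. Its log2 fold change was -0.23 (SE 0.21, 95% interval -0.67 to 0.21, limma adjusted p = 0.468). Only the unnumbered treated library lay outside the control range. Without control 1 the log2 fold change was -0.12 and without the unnumbered library -0.11.

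**Figure D2:**
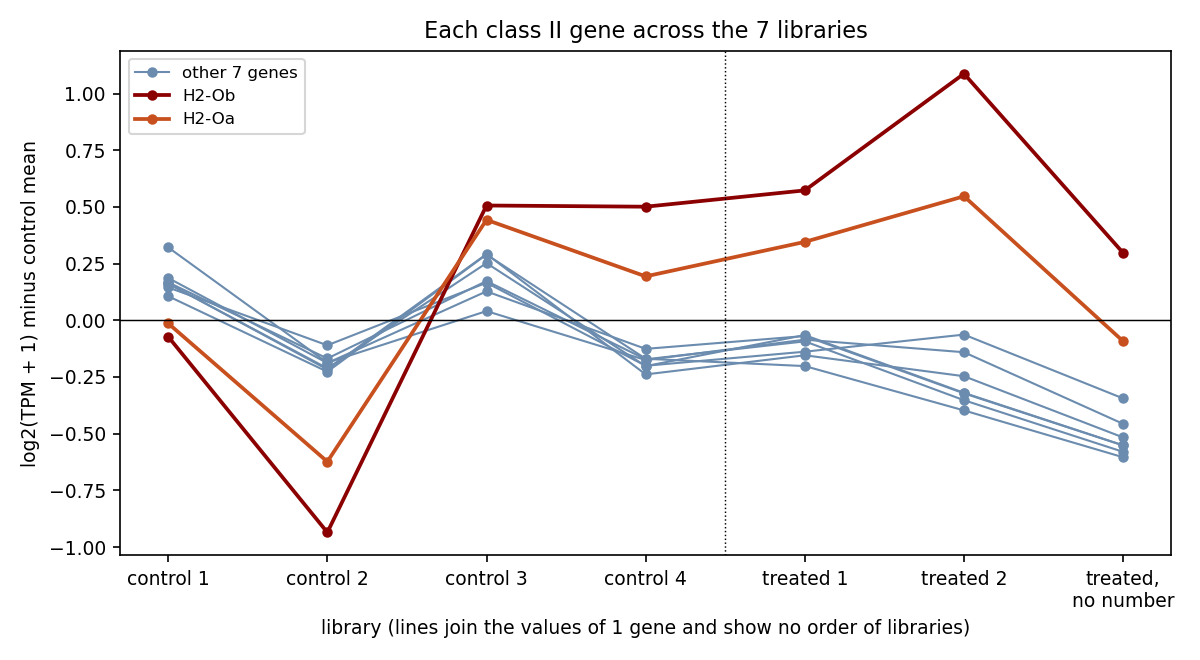
Deviation of log2(TPM + 1) from the control mean for each class II gene across the 7 libraries, with lines that only join the points of 1 gene. H2-Oa and H2-Ob, in warm colours, are lowest in control 2 and highest in treated 2, and the other 7 genes, in blue, are lowest in the unnumbered treated library.

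Ratios between class II genes were compared within each library, where scaling cancels out. Cd74 to H2-Ab1 stood at a ratio of 2.95 ± 0.107 (SD, n = 4) in the controls and 2.76 ± 0.0994 (SD, n = 3) with treatment, an exact permutation p of 0.0857, or 0.214 after Benjamini-Hochberg adjustment over the 5 ratios computed. The ratio of H2-Eb1 to H2-Ab1 was 1.59 ± 0.126 (SD, n = 4) against 1.58 ± 0.0925 (SD, n = 3), with an exact permutation p of 0.914 before and after adjustment. H2-DMa was 0.121 ± 0.00809 of H2-Ab1 (SD, n = 4) in the controls, against 0.132 ± 0.00837 (SD, n = 3) with treatment, with an exact permutation p of 0.171, adjusted 0.25. H2-Oa was 0.0527 ± 0.0168 of H2-DMa (SD, n = 4) against 0.0720 ± 0.0110 (SD, n = 3), with an exact permutation p of 0.2, adjusted 0.25. Tests were two-sided over 35 splits, whose smallest p is 0.0286, so that 1 ratio alone at that floor reaches an adjusted p of 0.143.

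Set against Ptprc, the pan-leukocyte gene for CD45, H2-Ab1 stood far apart between the groups. H2-Ab1 was 31.9, 52.0, 22.1 and 22.6 times Ptprc in the controls and 6.37, 3.12 and 8.08 times in the treated libraries. All 3 treated ratios lay below all 4 control ratios, with a log2 difference of -2.47 and a two-sided exact permutation p of 0.0286, the smallest the design allows, adjusted 0.143. Ptprc itself was 16.14 to 54.16 TPM in control and 84.32 to 263.13 TPM in treated libraries. It rose by a log2 fold change of 2.13 (SE 0.38, limma adjusted p = 0.00264), and robust variance estimation ended that call (adjusted p = 0.0637). The difference in Ptprc thus made up most of the difference in this ratio. Ptprc alone did not overlap between the groups whereas H2-Ab1 did, so the permutation result cannot be read as one about H2-Ab1.

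The deposited table splits each symbol into transcript rows without identifiers, and most class II genes rested on 1 row. The leading row held on average 98.94% of H2-Aa, 99.23% of H2-DMb1, 93.85% of H2-Ab1, 93.38% of H2-DMa, 85.9% of H2-Oa, 83.89% of Cd74 and 80.11% of Ciita. H2-Ob and H2-Eb1 were divided, with 37.16% and 36.87% in the leading row. For H2-Eb1 that row, the fifth in file order, stood at 759.94, 537.27, 631.69 and 536.32 TPM in the controls and 470.52, 418.57 and 328.05 TPM in the treated libraries. Its share of the gene was 39.5% ± 2.63 (SD, n = 4) against 32.3% ± 1.40 (SD, n = 3). The third row stood at 195.71 to 286.13 TPM in control and 222.77 to 279.77 TPM in treated libraries, with a share of 15.0% ± 1.76 (SD, n = 4) against 20.03% ± 1.07 (SD, n = 3). Neither share overlapped between the groups. Such shares occurred in 6 of 47 member rows above 0 (12.8%) and in 12.1% of the rows of all tested genes with at least 2 rows. These rows were picked after their values were seen, no test was run on them, and how reads were divided among transcripts of 1 gene is uncertain. With the highest row in place of the sum, H2-Eb1 had a log2 fold change of -0.59, still not called.

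The machinery that turns class II genes on was mostly without a call when libraries counted equally. Of 7 tested genes of the enhanceosome, the factors that Ciita docks on, 0 were called in limma, and 0 had an unadjusted p under 0.05 (median log2 fold change -0.01). Array weights called 3 of them, a setting that called 43.2% of all tested genes, and median-of-ratios scaling 1, where it called 15.4%. Individual log2 fold changes were Rfx5 at -0.25, Rfxap at 0.08 and Rfxank at -0.01. Of 10 genes upstream of Ciita, 1 rose and 1 fell (median 0.30, or 0.06 without treated 2 and 0.60 without the unnumbered library). Over all tested genes 4.3% were called higher and 7.59% lower. The number of these 10 that rose was 4 without the unnumbered library, 3 without control 3 and 2 without treated 1. With array weights 6 rose, where 15% of all tested genes were called higher. Median-of-ratios scaling gave 4, where it called 8.63% higher, and no filter on low values gave 0. Ifng, the cytokine that induces Ciita, stood at 1.77 to 4.17 TPM in control and 17.83 to 43.96 TPM in treated libraries and rose by 2.79 (SE 0.31, limma adjusted p = 0.000277). Ifngr2, a chain of its receptor, stood at 21.24 to 27.23 TPM in control and 9.82 to 19.03 TPM in treated libraries and fell by 0.84 on the log2 scale (limma adjusted p = 0.0307). That call was lost without control 2, control 3, treated 2 or the unnumbered library (adjusted p = 0.0686, 0.0568, 0.0713 and 0.0775). The other receptor chain Ifngr1 had a log2 fold change of 0.86 and the kinases Jak1 and Jak2 0.71 and -0.06. Irf1, a transcription factor that acts on the Ciita promoter, was at 0.32, and none of these 4 was called. Of the 10 log2 fold changes 7 were positive and 3 negative. Median-of-ratios scaling called Ifngr1 and Jak1 higher (limma adjusted p = 0.0282 and 0.0144).

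Of 8 endosomal processing genes, 3 fell and 0 rose, where 7.59% of all tested genes were called lower and 4.3% higher. Ctsl, a lysosomal cysteine protease, had a mean TPM of 302 ± 33.6 (SD, n = 4) without treatment against 165 ± 48.9 (SD, n = 3) with it, and fell by 0.90 on the log2 scale (SE 0.22, limma adjusted p = 0.016). Lgmn, the asparaginyl endopeptidase that makes early cuts in the invariant chain and antigens, had a log2 fold change of -0.81 (limma adjusted p = 0.0211), and Ctsz, a carboxypeptidase, -0.68 (limma adjusted p = 0.0369). Ctss, which makes the last cut in the invariant chain in most presenting cells, was at -0.51 (limma adjusted p = 0.223). All 8 log2 fold changes were negative, with a median of -0.69, beside a median of -0.24 and an upper quartile of 0.02 over all tested genes. Median-of-ratios scaling moved the 2 medians to -0.44 and -0.02. Control 3 was highest for 8 of 8. The number called was 0 without treated 2 and 0 without the unnumbered library, 1 without control 2 or control 3, and 1 (Ctsl) with median-of-ratios scaling. Ctsz was also lost without control 1 or control 4 (limma adjusted p = 0.0826 and 0.0563).

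Of the other partners, few were called. Cd83, which keeps class II on the surface by opposing the ubiquitin ligase Marchf1, stood at 3.13 to 5.57 TPM in control and 6.73 to 12.84 TPM in treated libraries and rose by 1.12 (SE 0.25, limma adjusted p = 0.0119). That call was lost without the unnumbered library (0.95, adjusted p = 0.0594). The ligases Marchf1 and Marchf8 were at 0.02 and -0.33. Of 5 tested genes for costimulatory molecules or inhibitory ligands of presenting cells, 0 were called in limma (median 0.39). Array weights called 3, a setting that called 43.2% of all tested genes. Cd80, Cd86 and Cd40 were at 0.39, 0.44 and 0.15. The 1 gene with an unadjusted p under 0.05 was Cd274, an inhibitory ligand, at 0.61 (limma adjusted p = 0.147). Pdcd1lg2, also an inhibitory ligand, did not pass the filter. Among partners of class II or Cd74, 2 of 5 rose, where 4.3% of all tested genes were called higher and 7.59% lower. Lag3, an inhibitory T cell receptor that binds class II, rose by 2.12 (limma adjusted p = 0.00691) and Cxcr4, a co-receptor with Cd74 for the cytokine Mif, by 1.90 (limma adjusted p = 0.0145). Robust variance estimation ended both calls (adjusted p = 0.0979 and 0.137), and without treated 2, the library highest for 10 of 10 T cell identity genes, Lag3 stood at 1.39. Mif was at -0.65, Cd4 at 0.47 and Cd44 at 0.04. Among the remaining class II chain genes, H2-Eb2 was at 0.51 and H2-DMb2 at 0.24, neither called in limma and 0 of 2 with an unadjusted p under 0.05, though median-of-ratios scaling called H2-Eb2 higher at 0.73 (limma adjusted p = 0.0429).

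**Figure D3:**
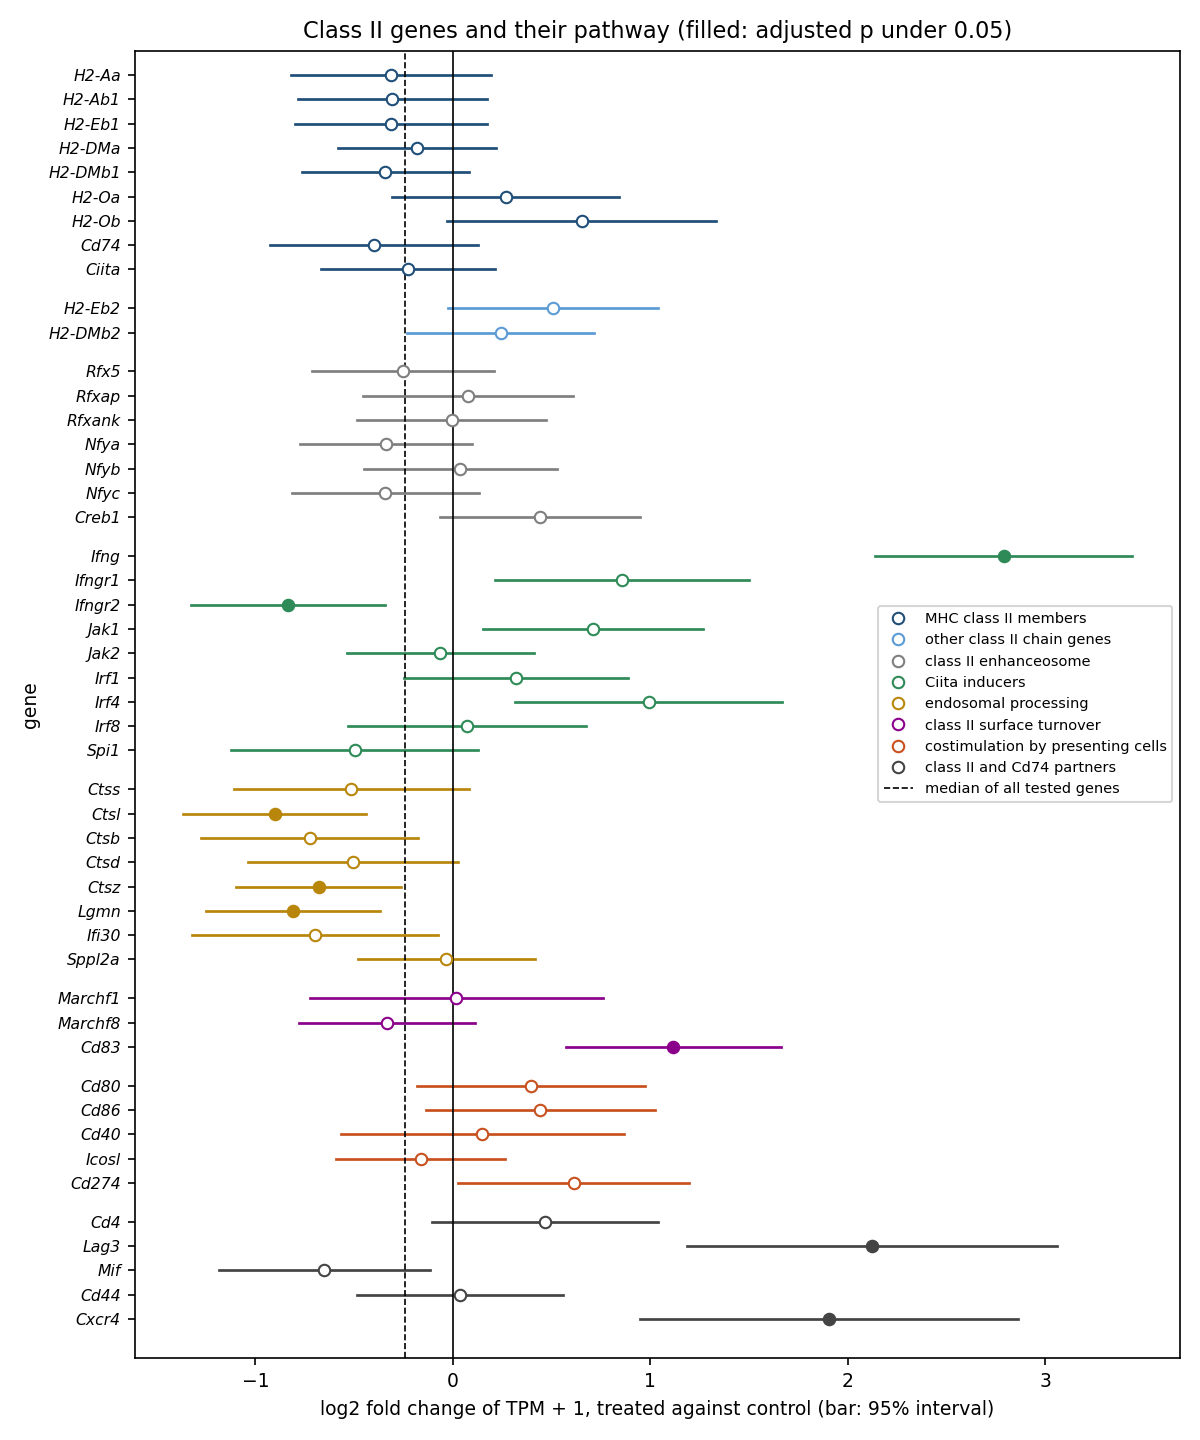
Log2 fold changes of log2(TPM + 1), treated against control, with 95% intervals for the class II genes and genes of their pathway lists, filled where the limma adjusted p was under 0.05. The dashed line is the median of all tested genes at -0.24. The intervals of all 9 members include 0, and Ifng, Ifngr2, Ctsl, Ctsz, Lgmn, Cd83, Lag3 and Cxcr4 are filled.

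Markers of the cells that could carry class II were measured in the same libraries. Beside the calls given here, limma called 4.3% of all tested genes higher and 7.59% lower. B cell markers summed to 38.27 to 128.4 TPM in control and 86.85 to 121.2 in treated libraries, 0 of 8 were called in limma and 0 had an unadjusted p under 0.05 (median 0.39), and control 2 was lowest for 8 of 8, as it was for H2-Oa and H2-Ob and for 4 of 4 pan-leukocyte genes. Without control 2 the B cell median was 0.12. Dendritic cell markers summed to 32.91 to 43.66 and 39.80 to 88.51 TPM. Of 7 tested, Ccr7, which T cells also express, and Siglech rose, and Flt3 and Xcr1 did not pass the filter. Ccr7 alone stood at 6.64 to 8.59 TPM in control and 14.4 to 47.4 TPM in treated libraries. The dendritic sum therefore does not tell dendritic cells from T cells. Siglech lost its call without any one of 5 libraries, at 0.63 without treated 2 (limma adjusted p = 0.172). Markers of class II high peritoneal macrophages and monocytes summed to 93.32 to 309.8 and 299.2 to 552.1 TPM. Ly6c2 alone stood at 23.92 to 48.01 TPM in control and 84.65 to 378.0 TPM in treated libraries. Ccr2, Retnla and Mrc1 overlapped between the groups and were not called, and the sum does not tell these cells from T cells. In that list Cd226 and Ly6c2, both also T cell genes, rose and Folr2 fell, and the fall was lost without treated 1, treated 2 or the unnumbered library (limma adjusted p = 0.0856, 0.0549 and 0.15). Resident peritoneal macrophage markers summed to 132.0 to 268.4 and 149.1 to 206.2 TPM. Of these 6, Icam2, an adhesion molecule that lymphocytes and endothelium carry too, rose by 1.05, and that was lost without control 2, treated 2 or the unnumbered library (limma adjusted p = 0.0952, 0.106 and 0.162). Gata6, a large part of the sum, stood at 61.62 to 65.89 TPM in control and 35.21 to 58.78 TPM in treated libraries. Its values did not overlap between the groups, and it was not called (log2 fold change -0.51, limma adjusted p = 0.108). Control 3, highest for 4 of these 6 markers, was the lowest control for Gata6. In treated 1, treated 2 and the unnumbered library Gata6 fell in the same order as Wt1, of the epithelium and mesothelium list. Which cells carried Gata6 was not tested. The sum thus joins genes that went in opposite directions. No list had a marker at 0 in every library.

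The class II sums overlapped between the groups, and the T cell sums did not. Pan-leukocyte genes summed to 169.5 to 425.4 TPM in control and 425.1 to 1186 TPM in treated libraries, and T cell identity genes, 10 of 10 of which rose (median 2.87), to 113.3 to 203.2 and 576.7 to 2504 TPM. The 9 class II genes summed to 6447 to 8855 and 5061 to 6833 TPM. Epithelium and mesothelium markers summed to 2145 to 2651 and 814.9 to 1532 TPM, with 5 of 6 tested lower (median -1.003), 3 without treated 2 and 3 without the unnumbered library. Limma called 4.3% of all tested genes higher and 7.59% lower. Epcam did not pass the filter. The part of these cell types in the class II levels was not tested.

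**Figure D4:**
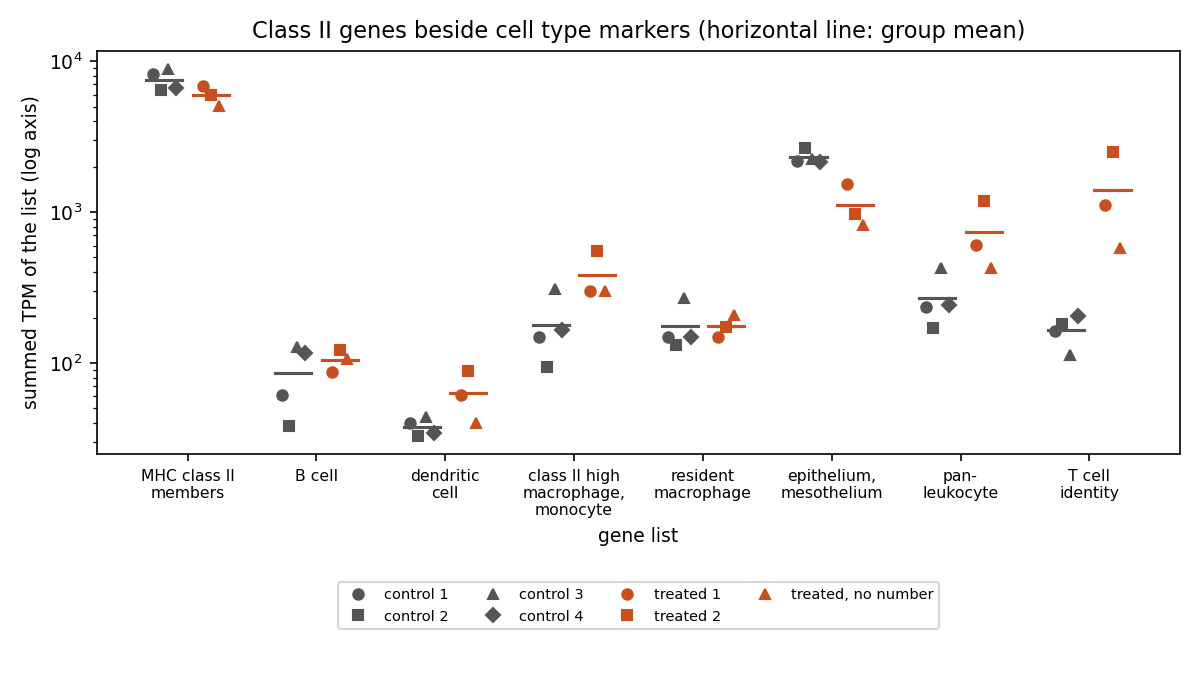
Summed TPM per library of the class II genes and of cell type marker lists on a log axis, grey for 4 control and orange for 3 treated libraries, with a line at each group mean. T cell identity sums do not overlap between the groups, at up to 203.2 in control and from 576.7 in treated libraries, whereas B cell and class II sums do. The class II high macrophage and monocyte list holds Ly6c2 and Cd226, which are also T cell genes.

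The genes most like H2-Ab1 were found by the mean absolute difference between deviations of log2(TPM + 1) from each gene's own mean over the 7 libraries. H2-Aa (0.0400) and Cd74 (0.0512) were nearer to it than any gene outside the class. Genes with model-number names (Gm and digits, or Rik) and antigen receptor segments were left out of the outside genes listed here. Some of those left out were nearer to H2-Ab1 than Nadsyn1. The nearest outside genes among the rest were Unc13a (0.0557), Trafd1 (0.0585), Raph1 (0.0674), Ndst2 (0.0691) and Nadsyn1 (0.0696). H2-DMb1 stood at 0.0692, H2-Eb1 at 0.0755, Ciita at 0.0826 and H2-DMa at 0.0865. H2-Oa and H2-Ob were far off, at 0.334 and 0.564. With the same names left out, nearest to Ciita were Acvr2a (0.0574), Ncoa6 (0.0624), Mib1 (0.0691), Parp4 (0.0694) and Rbm8a (0.0694). The measure is a description over 7 libraries that share their scaling, and low genes such as Unc13a, at 0.54 to 1.43 TPM, vary little on this scale.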

How the data were processed

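The authors deposited TPM values for 149132 transcripts, identified by gene symbol alone. Left out were 1001 rows that lack a symbol, which hold 0.307% to 0.618% of each library. The tools named are fastp, HISAT2 and StringTie with build mm39, per the submitters' processing notes. Roles and versions, and the program behind the TPM values are not given in the sources used here. Per the labels' protocols, poly(A) RNA was selected and stranded libraries were amplified by PCR. Of 7 value columns 6 matched a sample by name, and the other names only the treated group. There were 0 further value columns.

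TPM was summed per symbol. Genes with TPM of at least 1 in at least 3 libraries were compared as log2(TPM + 1), a pseudocount of 1, in limma 3.58.1 (R 4.3.3) with an intensity trend and Benjamini-Hochberg adjustment at 0.05. Ratios were tested with exact permutation in SciPy 1.17.1. The members and lists were chosen with earlier results of these data known. Named genes are the 9 members, and pathway genes that were called plus up to 3 others per list in list order. Also named are the 5 genes nearest to H2-Ab1 and to Ciita, leaving out model-number names and antigen receptor segments. Named outside that rule, after their values were seen, are Irf1, Cd274, Pdcd1lg2 and the marker genes. Data of 14967 genes were simulated with independent noise, with 40 genes changed at each size and 14767 unchanged. On these data limma recovered 55% of genes raised by a log2 change of 1 and 42.5% of those lowered by 1, and 90% at 2 in either direction. In the real data 11.9% of genes were called, and recovery after adjustment depends on that share, so these rates need not hold there. Alternatives changed the pseudocount, filter, scaling, variance model, library weights, transcript summary and replicate block, and left out each library. The values of 1 pathway gene are not reported here.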

Additional observations from a re-analysis of the deposited data

Results flagged for a closer look

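Of 28 values examined over the 4 control libraries, 2 had 1 library apart from the rest by the size of its gap to the nearest other library, and chance alone sets apart about 1 group in 20. Both were in control 3. Its summed TPM of endosomal processing genes was 3317, against 1965 in the next control, and its summed TPM of resident peritoneal macrophage markers was 268.4, against 149.2. None of the 9 class II genes and none of the 5 ratios was set apart in this way.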

How the results depend on the processing

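The count of class II genes called stayed at 0 higher and 0 lower in 17 of the 18 alternatives, and was 1 higher and 1 lower with array weights. Over those alternatives the log2 fold changes of H2-Aa, H2-Ab1, H2-Eb1, H2-DMb1 and Cd74 stayed negative and those of H2-Oa and H2-Ob positive, while H2-DMa and Ciita changed sign with median-of-ratios scaling. No ratio passed its adjusted test in any alternative. Leaving out a library leaves so few splits that even the smallest p, before adjustment, stays above the threshold for a call. Those alternatives therefore could not have given a pass, and no conclusion about the ratios is drawn from them.

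Over all genes, 643 were higher and 1136 lower. There were 3 and 4 with no filter on low values, where nearly every call was lost among 29687 genes. Median-of-ratios scaling gave 1292 higher, 56.1% of its calls against 36.1%. Without mitochondrially encoded genes 1872 were lower, and array weights gave 2246 higher and 4221 lower. Leaving out 1 library gave 388 to 794 higher and 585 to 2909 lower. The fewest higher came without treated 2 and the most without control 3, and the fewest lower without control 2 and the most without treated 1.

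The replicate block on numbers 1 and 2 of both groups, the 2 they share among usable columns, gave 574 higher and 138 lower genes and called 0 class II genes, with H2-Oa at 0.77 and H2-Ob at 1.33, against 0.27 and 0.65 without the block. Deviations from the group means correlated at -0.0195 and -0.0896 across genes for those 2 numbers, so the numbers were not taken to pair samples. Depth is unknown from TPM, so no detection limit is given. The cause of these shifts was not tested.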
